A study of Mus musculus with 17 samples.

Results

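The genes that encode collagen chains were followed through the RNA-seq libraries of neurons given ApoE particles and of mouse hippocampus. Members were all rows of the 4 deposited count tables whose gene symbol is Col, a type number, the letter a and a chain number, which gave 44 chains of 36271 genes listed in any table. They comprise 9 chains of fibrillar types (types I, II, III, V and XI), 8 of basement membrane types (types IV, XV and XVIII) and 27 others. A chain was used in a neuron table when at least 10 counts were found in 2 or more libraries, and in the hippocampus table when 1 library held 10 counts. That left 38 chains in the ADM table, 39 in set 1, 40 in set 2 and 42 in the hippocampus, with 38 chains in use in all 4 tables. The 9 fibrillar chains passed everywhere, and so did the 8 basement membrane chains except Col4a3 in the ADM table (4 and 5 counts in the controls, 6 and 32 with ADM). Closest under the limit, with 1 library at 10 counts or more, were Col13a1 in set 2 (1 to 10 counts), Col17a1 in set 1 (1 to 10) and Col10a1 in the ADM table (1 to 13). Among those just above it was Col4a3 in set 2 (2 to 12 counts). Col17a1 passed in none of the tables.

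Collagens are proteins of 3 chains wound into a triple helix. Fibrillar types assemble into the tensile fibrils of connective tissue, whereas type IV forms the sheet-like network of basement membranes, on which laminin, nidogen and perlecan are arranged. Types XV and XVIII are attached to basement membranes, type VI makes beaded filaments, and the fibril-associated types (IX, XII, XIV, XVI and others) sit on the surface of fibrils. In brain, most collagen is found in the basement membranes of blood vessels, in the meninges and in the choroid plexus. Type XXV is a transmembrane collagen made by neurons, first described as a component of amyloid plaques.

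All 17 libraries were made from total RNA of C57BL/6 mice. The 14 neuron libraries, from primary neuron cultures of brain, form 7 groups of 2: libraries labelled ADM and their own controls, ApoE particle treatment with its control (set 1), and, in a table of their own, neurons treated with control, with ApoE particle or with reconstituted ApoE particle (set 2). The hippocampus gave 1 library per group: mice given control short hairpin RNA (shRNA), either with or without FC, and mice given an shRNA against ApoE, with FC. The labels do not spell out ADM or FC, and they give no dose, time or age, no promoter or route for the shRNA, and no statement that paired libraries came from separate cultures. The p-values therefore measure the spread between these libraries, which may be technical. The study's title places the work on ApoE from astrocytes, neuronal cholesterol metabolism and memory.

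Library totals ran from 14624082 to 19142353 counts. Levels are counts per 1000000 counts of the library (CPM). The neuron markers (9 genes) summed to between 5175 and 7439 CPM in the 17 libraries, so neuron transcripts were present in the cultures and in the hippocampus. Markers of other cells were present too: in the neuron cultures, microglia markers (9 genes) summed to between 0.337 and 244 CPM and mural cell markers (10 genes) to between 14.6 and 909 CPM. In bulk RNA, fewer cells of a type and less RNA per cell cannot be told apart. The second ADM library stood apart from all others, with 2869 CPM of collagen against 526 CPM in the other ADM library. In the hippocampus Apoe, the target of the shRNA, stood at 1384 CPM with ApoE shRNA, 2797 CPM with control shRNA and FC, and 1697 CPM with control shRNA without FC.

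Type IV genes lie in head-to-head pairs, and the sequence between the starts of 2 such pairs is shown because both genes of each pair are described below. RefSeq promoter windows (build GRCm38.p6, which has the mm10 coordinates) were found for 35 of the 44 chains. In the GENCODE M21 annotation the Col4a1 and Col4a2 starts overlap by 22 bases, so this stretch is exonic on both strands, and 71 bases separate Col4a4 from Col4a3. The starts of Col4a6 and Col4a5 on chromosome X are 1308 bases apart. Both sequences are written on the plus strand, 5′ to 3′, with GC boxes (GGGCGG on either strand) in capitals.
Col4a1 and Col4a2 start overlap, chr8:11312805-11312826: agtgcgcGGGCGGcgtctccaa
Col4a4 to Col4a3 gap, chr1:82586850-82586920: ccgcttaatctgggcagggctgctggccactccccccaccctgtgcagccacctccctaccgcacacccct

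The 250 bases before the RefSeq start are shown for 2 chains that moved in opposite directions in the particle comparisons of the 2 sets (Col11a1 and Col5a1) and for Col25a1, which fell in set 2 without a called change in set 1. The Col11a1 and Col5a1 windows end at the gene starts of GENCODE M21. The RefSeq start of Col25a1 lies 49344 bases downstream of its GENCODE M21 start, so its window is inside the gene that the counts cover. The sequences are written 5′ to 3′ on the gene's own strand and hold no exon of GENCODE M21. Capitals mark a CCAAT box (CCAAT, or ATTGG on the other strand), a GC box (GGGCGG or CCGCCC) or a TATA box (TATAAA or TTTATA), and these 3 motifs did not overlap each other in the windows shown.
Col11a1, chr3:114030290-114030539, plus strand: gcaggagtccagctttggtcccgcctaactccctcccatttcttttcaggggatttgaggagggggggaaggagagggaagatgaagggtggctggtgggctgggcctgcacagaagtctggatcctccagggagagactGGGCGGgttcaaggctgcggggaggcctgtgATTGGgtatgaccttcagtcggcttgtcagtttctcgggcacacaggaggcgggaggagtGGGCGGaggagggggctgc
Col5a1, chr2:27886175-27886424, plus strand: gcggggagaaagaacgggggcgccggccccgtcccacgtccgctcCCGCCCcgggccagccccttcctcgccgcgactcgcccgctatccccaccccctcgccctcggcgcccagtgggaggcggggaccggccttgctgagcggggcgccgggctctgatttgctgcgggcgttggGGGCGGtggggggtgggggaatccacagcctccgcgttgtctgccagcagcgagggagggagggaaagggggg
Col25a1, chr3:130180595-130180844, plus strand: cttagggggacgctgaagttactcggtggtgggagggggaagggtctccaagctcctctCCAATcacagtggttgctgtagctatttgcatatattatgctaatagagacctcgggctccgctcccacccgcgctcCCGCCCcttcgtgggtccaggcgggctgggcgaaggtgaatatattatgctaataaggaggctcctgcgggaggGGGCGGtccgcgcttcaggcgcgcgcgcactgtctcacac
All 3 windows hold 2 GC boxes and none holds a TATA box. Over the collagen genes, a GC box was found for 21 of 35, a CCAAT box for 13 of 35 and a TATA box for 5 of 35. Among all 32851 promoter windows of this length, 32.7% hold a GC box, 33.8% a CCAAT box and 12.4% a TATA box. An AP-1 site (TGANTCA) was found for 1 of 35 collagen genes and in 6.75% of all windows. These are matches of letters only.

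The type IV chains Col4a1 and Col4a2 had the highest levels per length in the control neurons, but other type IV chains stood far lower. In the controls of set 1, set 2 and ADM, Col4a6 ranked 15, 18 and 21. Col4a4 ranked 31, 31 and 35 in the same order, and Col4a3 42, 42 and 43. Divided by the length of the gene's exons in kilobases (kb), Col4a1 and Col4a2 ranked first and second in set 1 (10.99 ± 0.038 and 8.22 ± 0.30 CPM per kb, SD, n = 2) and in set 2 (10.6 ± 0.63 and 10.2 ± 0.24 CPM per kb). In the ADM controls Col4a2 (6.42 ± 0.30 CPM per kb) and Col4a1 (5.99 ± 0.43 CPM per kb) led, and here, as in set 2, the first and second chain differed by less than 1 SD of each summed. Next came Col4a5 in set 1 (5.61 ± 0.85 CPM per kb) and in the ADM controls (2.46 ± 1.88 CPM per kb), and Col12a1 in set 2 (5.88 ± 1.56 CPM per kb), which did not stand apart from Col5a2 (5.52 ± 1.08) or Col4a5 (5.26 ± 0.90). In the hippocampus without FC, where there is 1 library, the order was Col6a1 (14.3 CPM per kb), Col4a2 (14.2), Col4a1 (10.8) and Col25a1 (7.43).

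Summed over all chains, collagen transcripts took 516 and 494 CPM in the set 1 controls and 1114 and 1230 CPM with the ApoE particle. In set 2 they took 743 and 602 CPM in the controls, 383 and 441 CPM with the ApoE particle, and 588 and 655 CPM with the reconstituted particle. The particle libraries thus lay above both controls in set 1 and below both in set 2, while the reconstituted libraries lay within or next to the control range. Fibrillar chains made up 18.2% and 17.3% of the collagen counts in the set 1 controls and 27.0% and 27.2% with the particle. In set 2 the fibrillar share stayed between 26.6% and 28.0% in all 6 libraries. The plot of summed levels shows the 3 classes in every library.

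**Figure D1:**
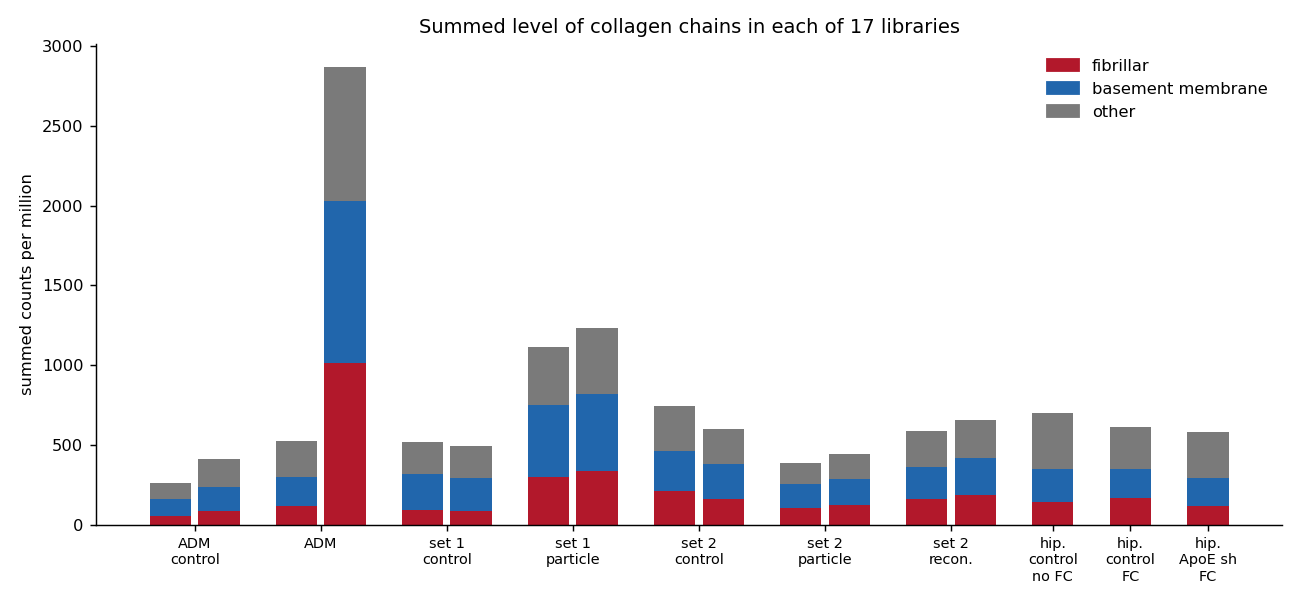
Summed CPM of fibrillar, basement membrane and other collagen chains in each of the 17 libraries; each bar is 1 library, and its colours stack the 3 classes. The second ADM library reaches 2869 CPM, the set 1 particle libraries 1114 and 1230 CPM, and the set 2 particle libraries 383 and 441 CPM.

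The set 1 comparison puts neurons treated with the ApoE particle beside control neurons. Of 39 chains, 21 were higher with the particle and 1 was lower at an adjusted p under 0.05 (edgeR's quasi-likelihood test, Benjamini-Hochberg over all genes), beside 18.9% of all 16475 genes tested higher and 17.4% lower. The rise covered 6 of 9 fibrillar, 7 of 8 basement membrane and 8 of 22 other chains. The median log2 fold change of the chains was 0.77 (1.65 fibrillar, 1.44 basement membrane, 0.36 other), against -0.0059 for all genes. Type V collagen, which starts fibrils and limits their width, and the first chain of type I led the fibrillar class.

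Col5a3 had 9.04 and 7.06 CPM in the controls and 46.8 and 52.9 CPM with the particle (log2 fold change 2.53 ± 0.14, adjusted p = 9.55e-07, where ± is a standard error derived from the F statistic of the test). Col1a1, a chain of type I collagen, had 5.69 and 6.22 CPM in the controls and 27.6 and 28.6 CPM with the particle (2.13 ± 0.14, adjusted p = 2.62e-06). Its partner chain Col1a2 had 3.92 and 3.05 CPM against 5.44 and 7.42 CPM (0.79 ± 0.24, adjusted p = 0.0238). Both type I chains rose, although Col1a1 moved further. Col5a2 (27.0 and 24.3 CPM in controls, 98.4 and 109 CPM with particle, 1.92 ± 0.10, adjusted p = 8.89e-07) and Col5a1 (13.1 and 14.7 CPM, then 42.9 and 52.8 CPM, 1.68 ± 0.13, adjusted p = 5.86e-06) also rose, as did Col11a1 of type XI (1.65 ± 0.11, adjusted p = 3.26e-06). The remaining 3 fibrillar chains were not called. Col3a1, the single chain of type III, had 1.64 and 1.47 CPM in the controls and 2.41 and 3.27 CPM with the particle (0.77 ± 0.31, adjusted p = 0.0776), and the cartilage chains Col2a1 and Col11a2 gave 0.32 ± 0.19 and -0.10 ± 0.19. The Col1a2 call rested on the second particle library, without which it gave 0.55 at an adjusted p of 0.288, and by DESeq2 its adjusted p was 0.108.

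Among basement membrane chains, Col4a1 had 81.8 and 82.2 CPM in the controls and 134 and 145 CPM with the particle (0.66 ± 0.086, adjusted p = 1.47e-04). Col4a2, with which it forms the type IV network of most basement membranes, had 53.0 and 55.8 CPM against 82.3 and 80.5 CPM (0.48 ± 0.088, adjusted p = 0.00148). These most abundant chains had the smallest fold changes of the 7 basement membrane chains called. Col4a5 had 41.7 and 33.7 CPM and 98.2 and 109 CPM (1.36 ± 0.11, adjusted p = 6.20e-06). Col4a6 went from 11.4 and 9.15 CPM to 30.4 and 33.1 CPM (1.52 ± 0.14, adjusted p = 1.38e-05), and Col4a4 from 3.16 and 3.11 CPM to 9.94 and 10.3 CPM (1.59 ± 0.19, adjusted p = 9.99e-05). Col4a3, which pairs with Col4a4 and Col4a5 in kidney and inner ear, rose from 0.379 and 0.622 CPM to 3.10 and 2.86 CPM (2.44 ± 0.39, adjusted p = 5.89e-04). Col18a1, whose end is released as endostatin, had 25.9 and 17.9 CPM in the controls and 83.3 and 98.1 CPM with the particle (1.95 ± 0.15, adjusted p = 6.20e-06). In all 7 of these chains both particle libraries lay above both controls. They were called from the same libraries, so this adds no support beyond the calls. Col15a1, the other chain of the same structural group as Col18a1, did not pass the test (5.18 and 5.54 CPM and 5.57 and 5.38 CPM, -0.075 ± 0.20, adjusted p = 0.81).

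Of the other chains, both members of type VIII, a short-chain collagen of vessel walls and the cornea, rose. Col8a2 had 2.91 and 1.86 CPM in the controls and 11.2 and 14.7 CPM with the particle (2.35 ± 0.24, adjusted p = 3.17e-05), and Col8a1 had 8.47 and 4.29 CPM and 33.2 and 32.8 CPM (2.28 ± 0.23, adjusted p = 4.78e-05). The fibril-associated Col12a1 rose from 27.8 and 26.7 CPM to 117 and 142 CPM (2.15 ± 0.11, adjusted p = 8.89e-07), and Col27a1 from 3.03 and 4.29 CPM to 9.88 and 11.5 CPM (1.43 ± 0.22, adjusted p = 4.04e-04). Col6a1 of the beaded filaments had 8.16 and 7.52 CPM and 17.7 and 15.0 CPM (0.96 ± 0.16, adjusted p = 7.81e-04), while its partners Col6a2 (0.45 ± 0.22) and Col6a3 (-0.011 ± 0.24) were not called. Also higher were Col22a1, Col9a3 and Col16a1, at 1.21, 0.93 and 0.39. The single chain to fall was Col6a5, an alternative to Col6a3 in type VI, with 3.86 and 5.93 CPM in the controls and 2.09 and 2.69 CPM with the particle (-1.14 ± 0.29, adjusted p = 0.00948). Col25a1, the neuronal transmembrane chain, had 17.7 and 20.2 CPM and 15.6 and 16.4 CPM (-0.35 ± 0.13, adjusted p = 0.0656), with the particle libraries below both controls but short of the threshold, and without the first control library its adjusted p was 0.0086.

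Genes that fold, cut, crosslink and anchor collagen were counted from 6 lists. In set 1, 11 of 18 genes of collagen folding and modification were higher and 1 was lower, with Plod2 at 1.29 ± 0.10 and P4ha3 at 1.37 ± 0.11 (hydroxylases of lysine and proline) and the collagen chaperone Serpinh1 at 1.31 ± 0.14. Procollagen processing and crosslinking genes were higher for 8 of 13 and lower for 0, led by the lysyl oxidases Lox (2.18 ± 0.17), Loxl2 (1.60 ± 0.22) and Loxl1 (1.12 ± 0.17). Receptors were higher for 7 of 9, among them Itga1 (1.63 ± 0.15), Ddr1 (0.92 ± 0.10) and Ddr2 (1.26 ± 0.15). Basement membrane partners were higher for 8 and lower for 1 of 14, with perlecan (Hspg2) at 2.13 ± 0.12, the laminin chain Lama5 at 1.60 ± 0.10 and nidogen 2 (Nid2) at 1.95 ± 0.14. Fibril partners were higher for 8 and lower for 2 of 12. Thrombospondin 1 (Thbs1, 2.02 ± 0.13) and fibronectin (Fn1, 1.53 ± 0.11) rose, whereas decorin (Dcn), which binds fibrils and is a fibroblast marker, fell by 3.36 on the log2 scale. Of TGF-beta signal genes and the matrix genes that respond to it, 7 of 9 were higher, with Ctgf at 2.51 ± 0.19 and Tgfbr2 at 1.79 ± 0.13.

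Markers of other cells moved in the same comparison. Mural cell markers summed to 68.6 and 48.5 CPM in the controls and 275 and 306 CPM with the particle (3 of 7 tested higher, 0 lower), with Kcnj8 at 0 in all 4 libraries and the smooth muscle actin Acta2 averaging 38.1 CPM in the controls and 243 CPM with the particle. Endothelial markers went from 39.9 and 23.4 CPM to 92.2 and 106 CPM (3 of 5 higher), with Cldn5 at 0 in all 4 libraries and Cdh5 at 0 in both particle libraries. Microglia markers went from 73.0 and 58.4 CPM to 244 and 244 CPM (8 of 8 higher), and choroid plexus markers from 31.9 and 17.6 CPM to 67.9 and 66.1 CPM (3 of 4 higher). Proliferation genes rose from 136 and 116 CPM to 473 and 567 CPM (6 of 6 higher), and 7 of 9 astrocyte markers were higher. Fibroblast and meningeal markers fell from 23.6 and 20.5 CPM to 7.22 and 8.30 CPM (2 of 4 lower, 0 higher), 8 of 9 neuron markers were lower, and oligodendrocyte lineage markers counted 3 higher and 3 lower of 7. The part of these cells in the collagen result was not tested. Scaling by library totals alone left 21 chains higher and 1 lower, but moved the higher share of all called genes from 52.0% to 65.6%.

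**Figure D2:**
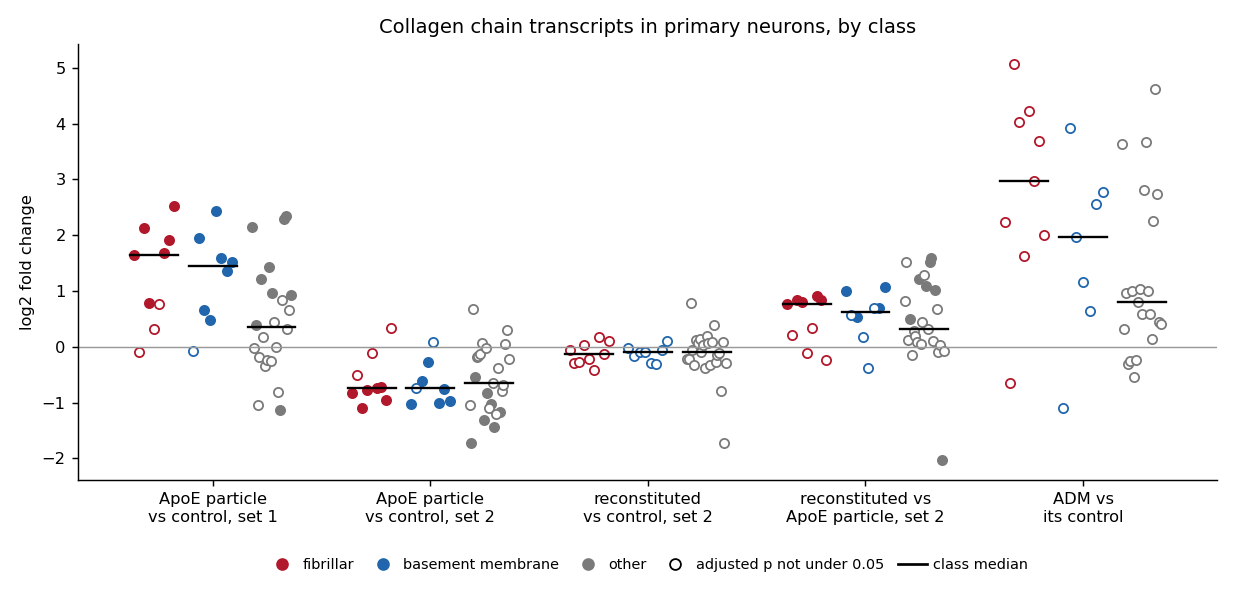
Log2 fold change of each collagen chain (1 point per chain) in 5 comparisons of neuron groups with 2 libraries each, by class; filled points have an adjusted p under 0.05 and black lines are class medians. Set 1 particle points lie mostly above 0 and set 2 particle points mostly below, with medians of 0.77 and -0.73 over all chains.

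The same particle comparison in set 2 ran the other way. Of 40 chains, 0 were higher and 19 were lower with the ApoE particle, beside 10% of all 16388 genes higher and 12.1% lower. The falls covered 6 of 9 fibrillar, 6 of 8 basement membrane and 7 of 23 other chains. Median log2 fold changes were -0.74 for the fibrillar class, -0.75 for basement membrane chains and -0.65 for the others, against 0.00067 for all genes.

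Col1a1 had 28.1 and 19.5 CPM in the controls and 9.90 and 12.3 CPM with the particle (-1.10 ± 0.17, adjusted p = 2.24e-04). Col1a2 had 12.2 and 9.10 CPM against 6.25 and 6.24 CPM (-0.78 ± 0.19, adjusted p = 0.00488), and Col3a1 8.15 and 7.07 CPM against 4.77 and 4.33 CPM (-0.74 ± 0.20, adjusted p = 0.00906). Type I and type III thus fell together. Col5a2 went from 60.3 and 45.7 CPM to 25.2 and 29.2 CPM (-0.96 ± 0.14, adjusted p = 0.00112), Col11a1 from 43.5 and 35.3 CPM to 18.5 and 26.1 CPM (-0.82 ± 0.14, adjusted p = 0.00138), and Col5a1 was lower at -0.73 ± 0.16. Col5a3, the chain with the largest rise of its class in set 1, was not called here (12.6 and 12.2 CPM in controls and 14 and 17.6 CPM with particle, 0.34 ± 0.15, adjusted p = 0.11). Without the first control library Col1a2 gave -0.55 (adjusted p = 0.107) and Col3a1 -0.64 (adjusted p = 0.0877), and by DESeq2 the adjusted p of Col3a1 was 0.0685.

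Among the basement membrane chains, Col4a1 had 82.4 and 75.7 CPM in the controls and 51.3 and 51.7 CPM with the particle (-0.62 ± 0.078, adjusted p = 2.57e-06), and Col4a2 had 68.5 and 66.2 CPM and 53.5 and 57.7 CPM (-0.28 ± 0.075, adjusted p = 0.00822). As in set 1, Col4a2 moved least of the called type IV chains. Col4a5 fell from 39.6 and 31.1 CPM to 20.0 and 21.9 CPM (-0.75 ± 0.12, adjusted p = 1.48e-04) and Col4a6 from 14.6 and 11.2 CPM to 5.01 and 8.21 CPM (-0.97 ± 0.21, adjusted p = 0.00342). Col4a4 had 5.47 and 4.11 CPM and 1.59 and 3.15 CPM (-1.01 ± 0.29, adjusted p = 0.0128). Col15a1, which showed no called change in set 1, fell from 5.01 and 4.46 CPM to 2.12 and 2.53 CPM (-1.03 ± 0.25, adjusted p = 0.00441). Col18a1 was lower in both particle libraries but was not called (37.1 and 25.0 CPM and 15.7 and 21.5 CPM, -0.74 ± 0.24, adjusted p = 0.0933), and by DESeq2 its adjusted p was 0.00193. Calls that rested on a library were Col4a4 (adjusted p = 0.132 without the first control and 0.218 without the first particle library) and Col4a2 (0.0646 and 0.0902).

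Of the other chains, Col25a1 gave the lowest adjusted p, with 21.2 and 21.9 CPM in the controls and 8.49 and 8.94 CPM with the particle (-1.31 ± 0.13, adjusted p = 3.27e-08). Col6a3 fell from 8.09 and 7.71 CPM to 3.30 and 2.53 CPM (-1.44 ± 0.21, adjusted p = 2.03e-05), and Col6a1 from 13.7 and 8.11 CPM to 4.72 and 6.07 CPM (-1.02 ± 0.23, adjusted p = 0.00318). Col7a1, the chain of anchoring fibrils, went from 6.04 and 5.91 CPM to 2.53 and 2.76 CPM (-1.18 ± 0.23, adjusted p = 6.55e-04). Their libraries did not overlap between groups, which adds no support beyond the calls. Col12a1 had the largest fall of any called chain but lay close to the threshold. It went from 106 and 72.8 CPM to 21.8 and 32.3 CPM (-1.73 ± 0.31, adjusted p = 0.0432). The call was lost by edgeR without the low-count filter (adjusted p = 0.0793), with a replicate block (0.119) and with only the 2 groups compared (0.111). The call was also lost without the first or the second particle library, where the log2 fold change of Col12a1 was -1.48 or -2.03. Col27a1 (-0.84 ± 0.21) and Col16a1 (-0.55 ± 0.12) completed the 7, and without the first control library the Col6a1 call was lost (adjusted p = 0.0836). Leaving out each library in turn gave between 13 and 23 called chains.

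In set 2, collagen folding and modification counted 3 higher and 3 lower of 18, with Plod3 at -0.60 ± 0.09, Plod1 at -0.50 ± 0.12 and P4hb, a subunit of prolyl 4-hydroxylase, at 0.28 ± 0.05. Processing and crosslinking counted 0 higher and 6 lower of 12, with Loxl1 at -1.19 ± 0.16, the peroxidase Pxdn, which crosslinks type IV, at -0.41 ± 0.06 and Adamts3 at -0.42 ± 0.078. Receptors counted 1 higher and 5 lower of 10, and the discoidin receptors separated, with Ddr2 at 0.86 ± 0.11 and Ddr1 at -0.57 ± 0.077. Itga1 was also lower (-0.98 ± 0.20). Basement membrane partners counted 1 higher and 6 lower of 14: agrin (Agrn) gave -0.60 ± 0.042 and nidogen 1 (Nid1) -0.81 ± 0.14, while the laminin chain Lama1 rose by 1.31 ± 0.14. Fibril partners counted 0 higher and 6 lower of 11, among them Thbs2 (-1.63 ± 0.19), Fbn1 (-0.83 ± 0.10) and Bgn (-0.91 ± 0.18), and the TGF-beta list counted 0 higher and 5 lower of 9, with Ctgf at -1.56 ± 0.21 and Tgfb3 at -0.97 ± 0.21.

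Other cell markers also moved in set 2. Mural markers summed to 168 and 107 CPM in the controls and 41.8 and 70.5 CPM with the particle (2 of 5 lower, 0 higher), and proliferation genes to 191 and 151 CPM and then 106 and 116 CPM (5 of 6 lower). Of the astrocyte markers 7 of 9 were lower and 1 was higher, of the neuron markers 4 of 9 were lower and 1 was higher, and 2 of 6 oligodendrocyte lineage markers were lower. Endothelial markers stayed between 9.31 and 16.1 CPM over the 4 libraries (0 of 6 called), and fibroblast markers between 2.36 and 4.90 CPM (1 of 3 lower). Choroid plexus markers gave 67.8 and 39.2 CPM in the controls and 43.1 and 56.8 CPM with the particle (0 of 5 called). Microglia markers did not exceed 1.51 CPM in any set 2 library, with C1qa or C1qb at 0 in every control and particle library. The part of these cells in the result was not tested.

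**Figure D3:**
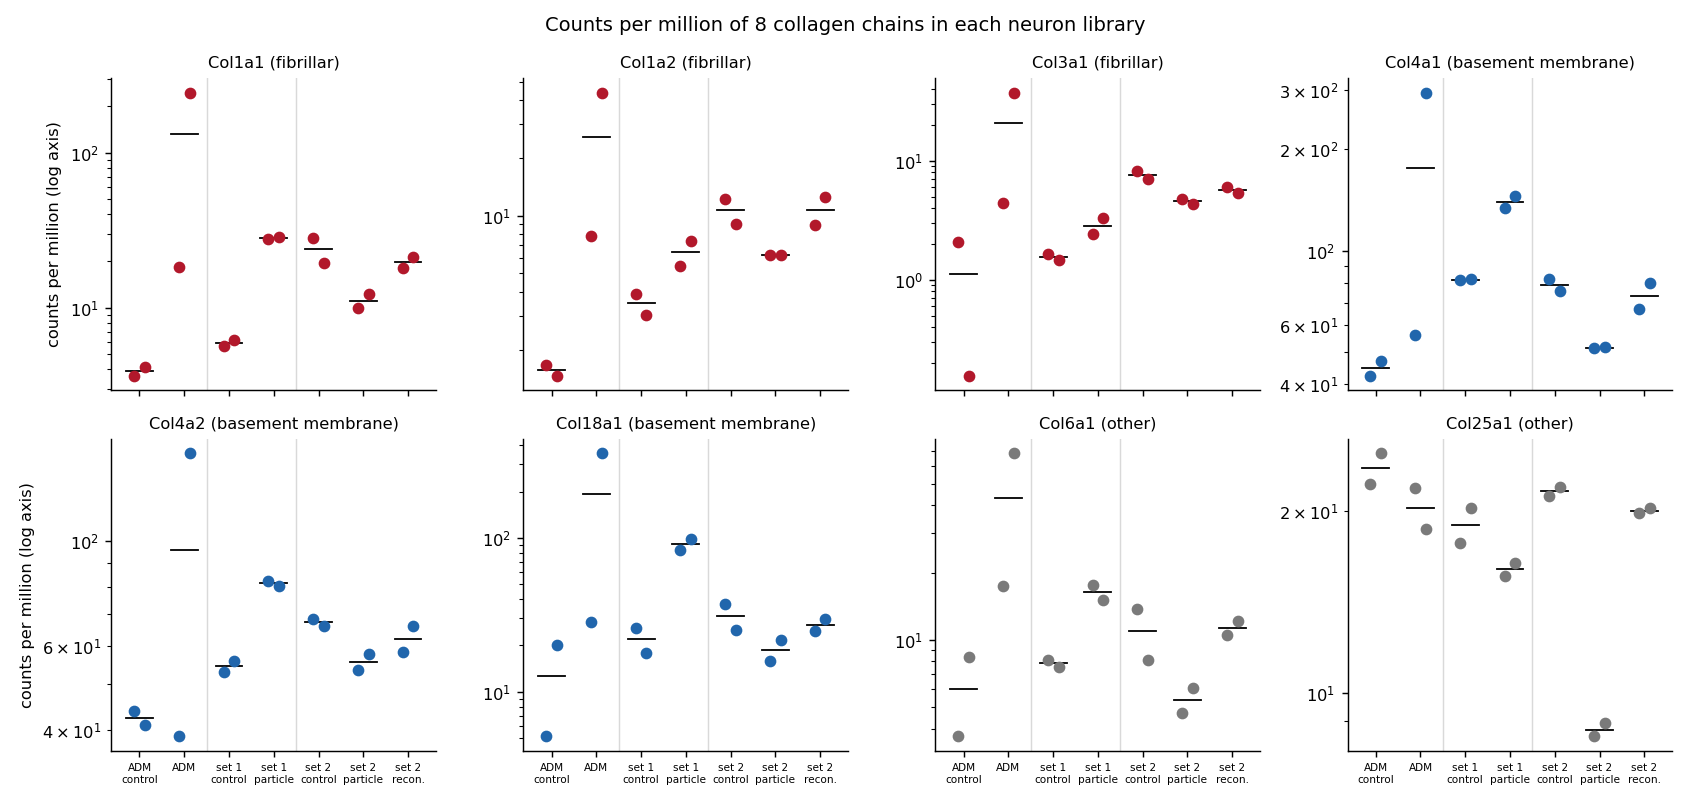
Levels in CPM (log axis) of 8 chains in each of the 14 neuron libraries; points are libraries, horizontal lines are group means of 2, and vertical lines part the 3 tables. Col1a1 has 27.6 and 28.6 CPM in the set 1 particle libraries against 9.90 and 12.3 CPM in the set 2 particle libraries, and Col25a1 is lowest in the set 2 particle libraries (8.49 and 8.94 CPM).

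The difference of the particle effect between the sets was tested directly, as the set 2 effect minus the set 1 effect, and was below 0 at an adjusted p under 0.05 in 26 of 39 chains and above 0 in 0. Over all 17098 genes, 14.8% of the differences were called above 0 and 16.4% below. Called chains comprised 7 of 9 fibrillar, 8 of 8 basement membrane and 11 of 22 others. Of the 21 chains higher in set 1, 14 were lower in set 2 (5 fibrillar, 5 basement membrane, 4 other), which is 14 of the 19 that were lower there. Over all genes tested in both sets, 605 of the 2841 higher in set 1 were lower in set 2, which is 605 of the 1930 lower there. The 5 that fell in set 2 without a call in set 1 were Col3a1, Col15a1, Col25a1, Col6a3 and Col7a1.

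The largest differences were those of Col12a1 (-3.90 ± 0.35, adjusted p = 3.97e-04) and Col1a1 (-3.26 ± 0.24, adjusted p = 1.96e-07). Col8a1 gave -3.11 ± 0.49, adjusted p = 0.00265, Col8a2 -3.07 ± 0.47, adjusted p = 1.53e-04 and Col5a2 -2.91 ± 0.17, adjusted p = 3.52e-08. The fibrillar chains Col11a1 and Col5a1 followed at -2.50 ± 0.21 and -2.43 ± 0.24, and Col1a2 and Col3a1 at -1.59 ± 0.31 and -1.54 ± 0.35. In the basement membrane class the difference reached -2.72 ± 0.35 for Col18a1, -2.63 ± 0.37 for Col4a4 and -2.52 ± 0.27 for Col4a6. It was smaller for Col4a1 (-1.31 ± 0.10) and Col4a2 (-0.78 ± 0.11). For Col4a3 the difference (-2.38 ± 0.73, adjusted p = 0.0219) rested on 5 to 12 counts in the set 2 control and particle libraries, and its call was lost in 5 of the 8 fits that leave out 1 library (adjusted p up to 0.229). Col27a1 (-2.29 ± 0.31), Col6a1 (-2.00 ± 0.31) and Col25a1 (-0.99 ± 0.18) differed as well. The sets are separate tables with separate controls, and set and any batch cannot be told apart. Of the markers, the difference was called below 0 for 6 of 6 proliferation genes, 6 of 9 astrocyte, 4 of 8 mural, 3 of 7 microglia, 2 of 6 endothelial and 2 of 5 choroid plexus genes, and above 0 for 5 of 9 neuron and 1 of 5 fibroblast genes. Of the 9 microglia genes, 0 passed the filter in set 2 alone, so their differences rest on set 1 counts beside very low set 2 counts. Of 7 oligodendrocyte lineage genes, 3 were above 0 and 3 below. The part of all these cells in the difference was not tested.

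In the pathway lists the difference was called below 0 for 10 and above 0 for 3 of 18 folding genes (Plod2 -1.54 ± 0.13, P4ha3 -1.75 ± 0.17, Plod1 -1.25 ± 0.16). It was below 0 for 8 of 13 processing genes (Lox -3.29 ± 0.28, Loxl1 -2.33 ± 0.27, Pxdn -0.84 ± 0.13) and 6 of 10 receptors (Ddr1 -1.51 ± 0.13, Itga1 -2.63 ± 0.25, Itgb1 -1.06 ± 0.10). Among basement membrane partners, 9 of 14 were below 0 and 1 above (Lamb2 -1.74 ± 0.13, Lamc1 -1.80 ± 0.14, Lama5 -2.21 ± 0.17). Fibril partners counted 8 below and 2 above of 12 (Tnc -2.13 ± 0.15, Fbn1 -1.82 ± 0.16, Fn1 -3.17 ± 0.21), and the TGF-beta list 8 of 9 below (Ctgf -4.10 ± 0.28, Tgfbr2 -2.68 ± 0.27).

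**Figure D4:**
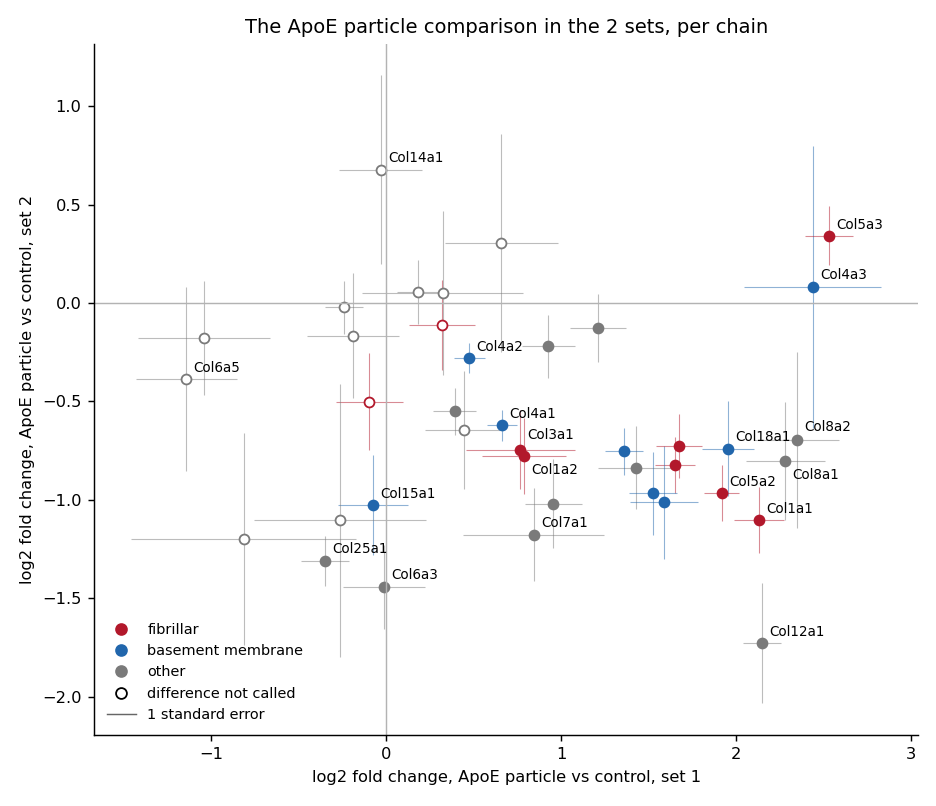
Log2 fold change of each of 39 chains with the ApoE particle in set 1 (x axis) and set 2 (y axis), each from 2 particle and 2 control libraries, with bars of 1 standard error; filled points are the 26 chains whose difference between sets had an adjusted p under 0.05. Most filled points lie right of 0 and below 0, while Col25a1, Col6a3 and Col15a1 lie left of 0 on the x axis.

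The reconstituted ApoE particle was compared with the same 2 controls as the ApoE particle of set 2. Against control, 0 of 40 chains were called by edgeR, as were 0.0% of all genes, and DESeq2 called 0 as well. At an unadjusted p under 0.05 there were 2 chains and 776 genes of 16388. The median log2 fold change of the chains was -0.096. Both reconstituted libraries lay above both controls in 1 chain and below both in 10, beside 14.2% and 19.1% of all genes. The chains with the lowest unadjusted p in each class were Col3a1 (8.15 and 7.07 CPM in controls, 5.96 and 5.35 CPM with the reconstituted particle, -0.41 ± 0.20, unadjusted p = 0.0469, adjusted p = 1), Col4a2 (58.3 and 66.3 CPM, -0.10 ± 0.074, unadjusted p = 0.193, adjusted p = 1) and Col9a2 (0.797 and 0.637 CPM and 0.304 and 0.119 CPM, -1.72 ± 0.71, unadjusted p = 0.0232, adjusted p = 1). Fold changes were -0.27 ± 0.16 for Col1a1, 0.027 ± 0.18 for Col1a2, -0.092 ± 0.076 for Col4a1, -0.17 ± 0.23 for Col18a1, 0.066 ± 0.21 for Col6a1 and -0.093 ± 0.12 for Col25a1. Mural markers stood at 112 and 127 CPM, within the 107 to 168 CPM of the controls.

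Set directly against the ApoE particle, the reconstituted particle had 15 of 40 chains higher and 1 lower, beside 11.4% and 8.88% of all genes. This comparison shares its particle libraries with the one described for set 2 and is not a separate line of evidence. The higher chains were 5 of 9 fibrillar, 4 of 8 basement membrane and 6 of 23 others. Col5a1 had 20.4 and 24.5 CPM with the reconstituted particle and 10.4 and 13.8 CPM with the ApoE particle (0.91 ± 0.16, adjusted p = 7.17e-04). Col1a1 had 18.0 and 21.3 CPM with the reconstituted particle (0.84 ± 0.17, adjusted p = 0.00267), Col1a2 9.0 and 12.6 CPM (0.80 ± 0.19, adjusted p = 0.00413) and Col5a2 43.6 and 52.4 CPM (0.83 ± 0.14, adjusted p = 0.00301). Col3a1 was not called (0.33 ± 0.21, adjusted p = 0.295).

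In the basement membrane class Col4a6 (12.1 and 15.5 CPM, 1.07 ± 0.21, adjusted p = 0.00165), Col15a1 (4.92 and 4.34 CPM, 1.01 ± 0.25, adjusted p = 0.0058), Col4a5 (30.1 and 36.8 CPM, 0.69 ± 0.12, adjusted p = 4.07e-04) and Col4a1 (67.2 and 79.8 CPM, 0.53 ± 0.078, adjusted p = 2.59e-05) were higher with the reconstituted particle. Col4a2 (0.18 ± 0.075, adjusted p = 0.0975) and Col18a1 (0.57 ± 0.24, adjusted p = 0.188) were not called. The result for Col18a1 depended on the processing. DESeq2 called it (adjusted p = 0.0313), as did edgeR without the low-count filter (1.87e-05) and with only the 2 groups compared (0.00439). Of the others, Col25a1 (19.8 and 20.2 CPM, 1.22 ± 0.13, adjusted p = 1.28e-07), Col6a3 (8.63 and 7.91 CPM, 1.52 ± 0.21, adjusted p = 9.83e-06) and Col6a1 (10.5 and 12.2 CPM, 1.08 ± 0.23, adjusted p = 0.00213) were higher. Col6a4 had the largest fold change but few counts (1.70 and 1.07 CPM against 0.472 and 0.450 CPM, 1.59 ± 0.52, adjusted p = 0.0332). Without the first reconstituted library, or either particle library, Col6a4 lost its call (adjusted p = 0.263, 0.12 and 0.131). The lower chain was Col9a2 of type IX (0.304 and 0.119 CPM against 0.825 and 0.956 CPM, -2.03 ± 0.69, adjusted p = 0.0385), named after its values were seen, and DESeq2 and the fits that leave out 1 library called 0 chains lower. Col1a2 lost its call without the second reconstituted library (adjusted p = 0.131), and Col15a1 without the first reconstituted or the first particle library (0.0508 and 0.0612).

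In the same comparison the pathway lists counted 4 higher and 5 lower of 18 folding genes (P4hb -0.35 ± 0.05, Colgalt2 -0.76 ± 0.16, Plod1 0.52 ± 0.12), 4 higher of 12 processing genes (Loxl1 1.13 ± 0.16, Adamts3 0.44 ± 0.078, Lox 1.17 ± 0.23) and 4 higher and 1 lower of 10 receptors (Ddr2 -0.99 ± 0.11, Ddr1 0.52 ± 0.077, Itga1 1.10 ± 0.20). Basement membrane partners counted 6 higher and 1 lower of 14 (Agrn 0.53 ± 0.042, Lama1 -1.40 ± 0.14, Nid1 0.71 ± 0.14). Fibril partners counted 6 higher of 11 (Thbs2 1.64 ± 0.19, Fbn1 0.76 ± 0.10, Bgn 0.80 ± 0.18) and the TGF-beta list 6 higher of 9 (Ctgf 1.26 ± 0.21, Tgfb3 0.89 ± 0.21). Of the markers, 7 of 9 astrocyte genes, 5 of 6 proliferation genes, 5 of 9 neuron genes (1 lower) and 2 of 5 mural genes (1 lower) were higher. So were 1 of 6 endothelial, 1 of 3 fibroblast and 1 of 6 oligodendrocyte lineage genes, and 0 of 5 choroid plexus genes were called. Their part was not tested.

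In the ADM comparison the chains had large fold changes and a spread to match. By edgeR without a term for the replicate number (replicate block), 0 of 37 chains tested passed, as did 0.0% of all 16191 genes. At an unadjusted p under 0.05 there were 12 chains and 1426 genes. Same-numbered libraries deviated together here (r = 0.48), and edgeR with the replicate block did call chains, as given in the closing section. DESeq2 called 5 chains, all higher, beside 1.69% of all genes called higher by it. The median log2 fold change was 1.16 over the chains (2.97 fibrillar, 1.96 basement membrane, 0.80 other) and 0.015 over all genes. In 20 chains both ADM libraries lay above both controls and in 2 below, beside 23.2% and 16.7% of all genes.

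The second ADM library was the highest of the ADM and control libraries in each chain given here. Without it the log2 fold changes were smaller. They were 2.19 for Col1a1, 2.26 for Col1a2, 1.93 for Col3a1, 2.50 for Col6a2, 1.47 for Col6a1 and 1.11 for Col18a1. For Col4a1 and Col4a2 they were 0.27 and -0.19. Col1a1 had 3.63 and 4.13 CPM in the controls and 18.4 and 244 CPM with ADM (5.07 ± 1.34, unadjusted p = 0.0146, adjusted p = 0.547), and Col1a2 had 1.67 and 1.46 CPM and 7.80 and 43.9 CPM (4.03 ± 0.94, unadjusted p = 0.00889, adjusted p = 0.5). Col3a1 had 2.08 and 0.157 CPM in the controls and 4.38 and 37.2 CPM with ADM (4.23 ± 1.51, unadjusted p = 0.0405, adjusted p = 0.559). In all 3 the first ADM library was above both controls and the second was several times higher again. Col4a1 had 42.4 and 47.0 CPM and 55.9 and 295 CPM (1.96 ± 0.79, unadjusted p = 0.0597, adjusted p = 0.582), Col18a1 5.12 and 20.0 CPM and 28.4 and 355 CPM (3.92 ± 1.40, unadjusted p = 0.0403, adjusted p = 0.559), and Col4a2 43.9 and 41.1 CPM and 38.8 and 153 CPM (1.16 ± 0.66, unadjusted p = 0.141, adjusted p = 0.64). For Col4a2 the first ADM library was below both controls. Col6a2 had the lowest unadjusted p of all chains (0.893 and 1.62 CPM, then 7.45 and 25.2 CPM, 3.67 ± 0.76, unadjusted p = 0.00552, adjusted p = 0.475), and Col6a1 had 3.69 and 8.36 CPM and 17.4 and 68.5 CPM (2.82 ± 0.81, unadjusted p = 0.0192, adjusted p = 0.547). DESeq2 called both (adjusted p = 1.71e-05 for Col6a2 and 0.00218 for Col6a1), as did edgeR with the replicate block (0.00722 and 0.0105).

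The fold change was below 0 in 6 of 37 chains, and in 2 of these, Col15a1 and Col25a1, both ADM libraries lay below both controls. Col15a1 had 7.26 and 7.57 CPM in the controls and 4.03 and 2.99 CPM with ADM (-1.11 ± 0.31, unadjusted p = 0.0183, adjusted p = 0.547), and Col25a1 had 22.1 and 24.9 CPM and 21.8 and 18.6 CPM (-0.24 ± 0.18, unadjusted p = 0.248, adjusted p = 0.721). In both, the second ADM library was the lowest of the 4. Without the second ADM library the chains' median log2 fold change was 0.40 and 0 chains were called, beside 0.278% of all genes, with Col1a1 closest (2.19, adjusted p = 0.0531), and Col4a2 turned to -0.19, adjusted p = 0.927. Without the first ADM library 8 chains were called, all higher, beside 3.41% of all genes called higher, with Col1a1 at 5.96, adjusted p = 1.32e-04. In each of these fits the lone ADM library was assumed to vary like the controls. Mural markers summed to 14.6 and 65.2 CPM in the controls, 38.2 CPM in the first ADM library and 909 CPM in the second (0 of 5 called), with Kcnj8 at 0 in the second, and choroid plexus markers to 3.39, 17.8, 3.97 and 68.3 CPM. Endothelial markers gave 4.76 and 21.2 CPM in the controls and 7.39 and 45.0 CPM with ADM, and fibroblast markers 10.8 and 10.9, then 17.1 and 23.3 CPM. The part of these cells was not tested. All 6 pathway lists counted 0 called genes, with medians from 0.87 (folding) to 2.37 (fibril partners).

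Set against the set 1 ApoE particle effect, the ADM effect differed at the threshold in none of 38 chains by edgeR without the replicate block. Of all 17292 genes, 0.0% were called, with 3 chains and 1768 genes at an unadjusted p under 0.05. DESeq2 called 2 chains above 0, beside 1.15% of all genes. The median difference was 0.88, with Col6a2 at 3.18 ± 0.82, unadjusted p = 0.00571, adjusted p = 0.275, Col1a2 at 3.20 ± 1.07, unadjusted p = 0.0212, adjusted p = 0.392 and Col15a1 at -1.08 ± 0.34, unadjusted p = 0.0145, adjusted p = 0.36. Fold differences were 2.89 ± 1.47 for Col1a1, 3.42 ± 1.72 for Col3a1, 1.25 ± 0.93 for Col4a1, 0.64 ± 0.78 for Col4a2, 1.92 ± 1.54 for Col18a1, 1.81 ± 0.93 for Col6a1 and 0.057 ± 0.22 for Col25a1. Without the second ADM library the median difference was -0.28 and 1 chain was called below 0, beside 1.37% of all genes. Without the first it was 1.34 with 7 chains called above 0, beside 1.79% of all genes. The direction of the median difference thus rested on the second ADM library. Without that library the ADM fold changes against control of Col6a2, Col1a2 and Col15a1 were 2.50, 2.26 and -0.93 and kept their sign.

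Chains that share a triple helix did not always keep their proportions. Per kb of exon, Col1a1 stood to Col1a2 at 2.75 and 3.86 in the set 1 controls and at 9.60 and 7.31 with the particle, with no overlap. In set 2 this ratio was 4.35 and 4.06 in controls, 3.0 and 3.74 with the ApoE particle and 3.79 and 3.21 with the reconstituted particle, and in the hippocampus it lay between 1.06 and 1.64. Protein of type I holds 2 Col1a1 chains for each Col1a2 chain, as background. The ratios per kb cannot be set against that number, because they depend on the exon length used. This length covers all annotated exons and was 6563 bases for Col1a1 and 12426 bases for Col1a2. Col4a1 stood to Col4a2, whose starts overlap in the sequence printed earlier, at 1.37 and 1.31 in the set 1 controls and at 1.44 and 1.60 with the particle. In set 2 it was 1.07 and 1.01 in controls, 0.851 and 0.794 with the ApoE particle and 1.02 and 1.07 with the reconstituted particle. The ratio was thus above the controls with the particle in set 1 and below them in set 2. The ratio of Col4a5 to Col4a6 was 4.33 and 4.37 in the set 1 controls and 3.83 and 3.93 with the particle. In set 2 it was 3.22 and 3.28 in controls, 4.75 and 3.17 with the ApoE particle and 2.95 and 2.83 with the reconstituted particle. In the hippocampus it lay between 1.55 and 4.37. Col5a1 to Col5a2 lay between 0.493 and 0.686 in set 1 and between 0.419 and 0.532 in set 2. It lay between 0.460 and 1.18 in the ADM and ADM control libraries, and between 3.12 and 3.98 in the hippocampus. With 2 libraries a group no exact test of a single ratio can reach the 0.05 threshold, and none is given.

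Patterns over the 14 neuron libraries were compared by Pearson correlation of log2(CPM + 0.5), as a description of libraries that share tables and controls. The genes most like Col1a1 among 15032 were Adamts14, which trims procollagen (0.97), Mcam (0.97), Bgn (0.97), Ecm1 (0.96) and Pear1 (0.96). For Col4a1 they were Itga3 (0.99), Qsox1 (0.97), Prss23 (0.97), Podn (0.97) and Mrc2 (0.97). A correlation over 0.9 with Col1a1 was shown by 5 of the 36 other chains and 66 of 15031 genes, and with Col4a1 by 7 of 36 chains and 151 genes. Col25a1 stood apart from both (-0.026 with Col1a1 and 0.070 with Col4a1), and Col15a1 gave -0.42 and -0.12. These counts and ranks rested in part on the second ADM library. Without it, over 13 libraries, a correlation over 0.9 with Col1a1 was shown by 1 chain and 40 genes, and with Col4a1 by 2 chains and 382 genes. Adamts14 then gave 0.92 with Col1a1 and ranked 20, and Mcam gave 0.94 and ranked 6. Itga3 stayed at rank 1 for Col4a1 (0.98), while Qsox1 went to rank 62 and Mrc2 to rank 110. Between Col1a1 and Col4a1 themselves the correlation went from 0.84 to 0.64.

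In the hippocampus each group is 1 library, so the values describe those libraries and carry counting intervals only, with no test between conditions. Each ratio is on the log2 scale, between CPM values after 0.5 counts were added. Chains needed 10 counts in whichever library was higher, and called means at least 2-fold. With control shRNA, 5 of 41 chains were past 2-fold higher with FC than without and 6 were past 2-fold lower, beside 10.3% and 4.09% of all 18037 genes. The median ratio was -0.051 for the chains and 0.030 for all genes.

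Col1a2 had 195 counts without FC and 485 with FC (log2 ratio 1.34, 95% interval 1.10 to 1.59), Col3a1 33 and 72 (1.14, 95% interval 0.54 to 1.80), and Col4a6 43 and 144 (1.76, 95% interval 1.27 to 2.30). Col24a1, a chain close to the fibrillar types, had 30 and 95 (1.68, 95% interval 1.09 to 2.34). Lower with FC were Col25a1 with 1748 and 771 counts (-1.15, 95% interval -1.27 to -1.03), Col6a1 with 1138 and 524 (-1.09, 95% interval -1.24 to -0.94) and Col4a4 with 64 and 25 (-1.31, 95% interval -2.05 to -0.64). Fewer than 50 counts lay behind the other 4, Col9a1 higher and Col2a1, Col6a5 and Col6a6 lower, which were named after their values were seen. The remaining chains given in every comparison stayed within 2-fold: Col1a1 at 0.72, 95% interval 0.43 to 1.00, Col4a1 at -0.29, 95% interval -0.40 to -0.17, Col4a2 at -0.22, 95% interval -0.32 to -0.12 and Col18a1 at -0.05, 95% interval -0.42 to 0.32.

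With FC in both, ApoE shRNA gave 3 chains past 2-fold higher and 9 past 2-fold lower of 41 than control shRNA, beside 2.88% and 14.4% of all 17940 genes. This comparison shares the control shRNA FC library with the one before. Col1a1 had 272 counts with control shRNA and 129 with ApoE shRNA (-1.16, 95% interval -1.48 to -0.86), Col1a2 485 and 166 (-1.63, 95% interval -1.90 to -1.38) and Col3a1 72 and 19 (-1.98, 95% interval -2.82 to -1.26). These fibrillar chains were thus highest in the control shRNA library with FC. Col4a6 had 144 and 19 (-2.98, 95% interval -3.78 to -2.31) and Col4a5 188 and 70 (-1.51, 95% interval -1.93 to -1.11), while Col4a1 (0.13, 95% interval 0.01 to 0.24), Col4a2 (0.05, 95% interval -0.05 to 0.16) and Col18a1 (-0.25, 95% interval -0.64 to 0.14) stayed within 2-fold. Col27a1 (-1.10, 95% interval -1.42 to -0.79) and Col6a3 (-1.15, 95% interval -1.61 to -0.71) were lower, and Col25a1 was at 0.48, 95% interval 0.34 to 0.61. Higher with ApoE shRNA were Col6a1, with 524 and 1142 counts (1.04, 95% interval 0.89 to 1.19), and Col6a4, a type VI chain, with 5 and 167 counts (4.85, 95% interval 3.72 to 6.62). The other 3 past 2-fold, named after their values were seen, had under 50 counts: Col6a5 was higher (2 and 28 counts, 3.43, 95% interval 1.73 to 6.83), and Col8a1 and Col9a1 were lower.

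Against control shRNA without FC, the ApoE shRNA library with FC had 1 of 42 chains past 2-fold higher and 4 lower, beside 2.0% and 5.44% of all 17525 genes. Here both shRNA and FC differ, so their parts cannot be told apart. The higher chain was again Col6a4 (6 and 167 counts, 4.63, 95% interval 3.59 to 6.21), which is low in both control shRNA libraries. Lower were Col4a4 (-1.94, 95% interval -2.83 to -1.18) and Col14a1 (-1.10, 95% interval -1.88 to -0.39). Lower with under 50 counts were Col4a6 (43 and 19 counts, -1.21, 95% interval -2.10 to -0.43), named in the comparisons before, and Col6a6 with 22 and 3 counts, named after its values were seen. Col1a1 (-0.45, 95% interval -0.79 to -0.11), Col1a2 (-0.29, 95% interval -0.60 to 0.02), Col3a1 (-0.84, 95% interval -1.75 to 0.00), Col4a1 (-0.16, 95% interval -0.27 to -0.05), Col4a2 (-0.17, 95% interval -0.27 to -0.07), Col6a1 (-0.05, 95% interval -0.17 to 0.07), Col18a1 (-0.30, 95% interval -0.69 to 0.08) and Col25a1 (-0.67, 95% interval -0.78 to -0.57) stayed within 2-fold.

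Of the marker lists, microglia markers summed to 1539 CPM in the control shRNA library with FC, against 343 CPM without FC and 260 CPM with ApoE shRNA. Choroid plexus markers stood at 53.4 CPM in that library against 24.0 and 26.9 CPM, and astrocyte markers at 8121 CPM against 6088 and 4908 CPM. Fibroblast and meningeal markers summed to 133, 146 and 131 CPM in the same order, but 3 of 9 were past 2-fold higher and 1 lower with FC, and 4 of 9 lower with ApoE shRNA than with control shRNA and FC. Mural markers stood at 273, 284 and 212 CPM, with Tagln at 0 without FC, endothelial markers at 288, 261 and 157 CPM, and oligodendrocyte lineage markers at 4195, 3237 and 3269 CPM. Proliferation genes summed to 16.2 CPM in the control shRNA library with FC against 6.55 CPM without FC and 5.66 CPM with ApoE shRNA, with 4 of 6 past 2-fold higher with FC and 4 of 6 past 2-fold lower with ApoE shRNA than with control shRNA and FC. Of the TGF-beta list, 6 of 9 genes were past 2-fold higher with FC than without, and 5 of 9 past 2-fold lower with ApoE shRNA than with control shRNA. The other 5 pathway lists had from 0 to 3 genes past 2-fold higher and from 0 to 4 lower in any hippocampus comparison. The part of these cells in the collagen values was not tested.

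**Figure D5:**
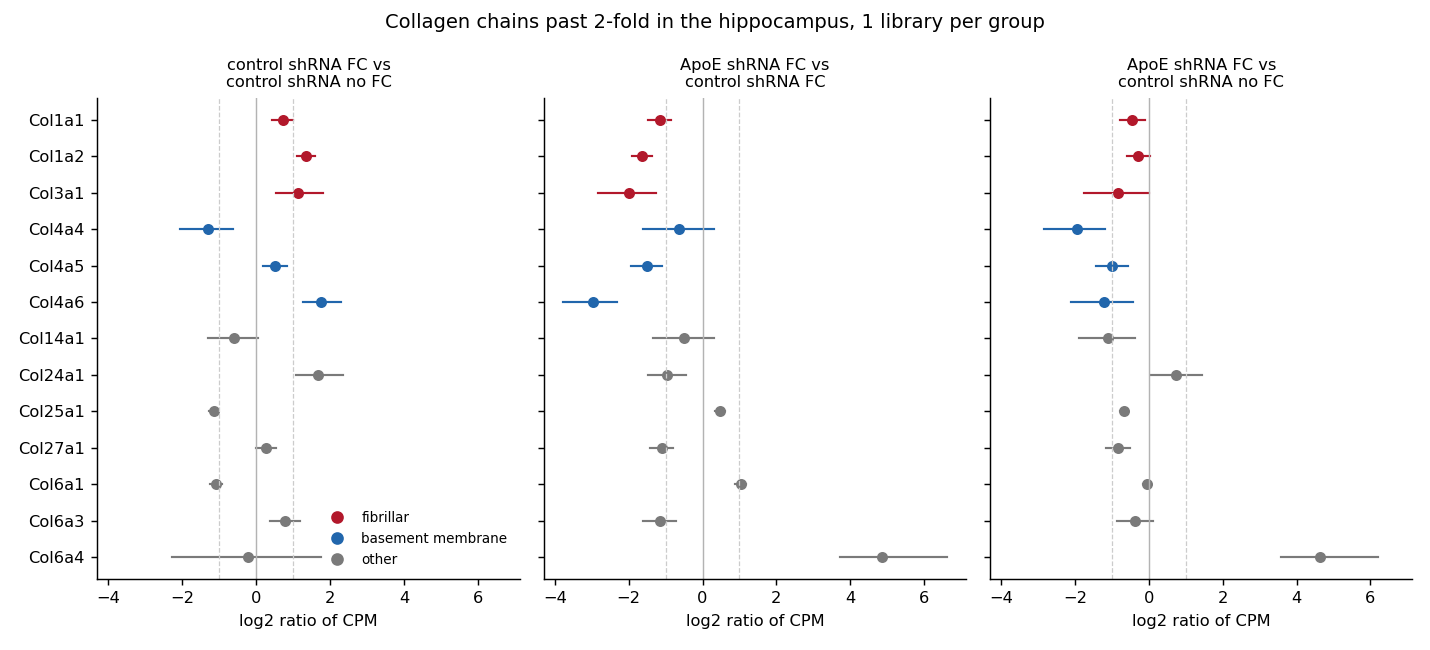
Log2 ratio of CPM (points) with the exact 95% counting interval (lines) for the 13 chains past 2-fold with 50 or more counts behind the higher value in any of the 3 hippocampus comparisons; dashed lines mark 2-fold and each group is 1 library. Col6a4 lies at 4.85 and 4.63 in the comparisons that involve ApoE shRNA, and Col4a6 at 1.76 and -2.98 in the comparisons that involve the control shRNA library with FC.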

How the data were processed

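Messenger RNA levels were taken from 4 tables of read counts per gene that the authors deposited, 1 for each set of libraries. Total RNA was extracted with Trizol and 2 µg went into NEBNext Ultra RNA libraries, per the labels' protocols. The tools listed in the submitters' processing notes are HTSeq 0.6.0, HISAT2 2.1.0 and Bowtie2 2.2.3, with mm10 as build, and neither their roles nor a strand setting is stated there. Libraries hold 14624082 to 19142353 counts, and 1489 set 2 genes with missing values (no collagen among them) were left out, also of the sums behind the set 2 CPM.

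Counts were tested with edgeR 4.0.16 (R 4.3.3, limma 3.58.1): filterByExpr, TMM scaling, a robust quasi-likelihood fit over all genes and the Benjamini-Hochberg adjustment, with a threshold of 0.05. The 3 groups of set 2 shared 1 fit, and differences between effects were interaction terms over 2 tables. The filter removed Col9a1 from the ADM test. DESeq2 1.42.0, other scalings, no filter, a replicate block and fits that leave out 1 library were alternatives, and the steps were tested on simulated data. A ± beside a log2 fold change is a standard error worked back from the test. It is the size of the log2 fold change divided by the square root of the F statistic. Degrees of freedom can differ between genes in the robust fit, so equal ratios to this error need not give equal p-values. Hippocampus ratios carry exact 95% intervals of the counts, which cover counting error only. Of the 44 chains, 13 share exon bases with another gene, 0 of them over 10% of their exon length.

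Chains described by library were, per comparison and class, up to 4 called chains with the largest fold change, if the higher group reached 1 CPM (without a call, the chain with the lowest p), plus Col1a1, Col1a2, Col3a1, Col4a1, Col4a2, Col6a1, Col18a1 and Col25a1. In the hippocampus they were chains past 2-fold with at least 50 counts. From each of 6 pathway lists up to 3 called genes with the lowest adjusted p were named, except for 1 gene that is not reported here, and 9 marker lists were summed. Members and lists were chosen with earlier results of these data known.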

Additional observations from a re-analysis of the deposited data

Results flagged for a closer look

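The effect of the ApoE particle on 26 collagen chains differed between set 2 and set 1 by the interaction test (edgeR, adjusted p under 0.05), and each value is the log2 fold change in set 2 minus that in set 1. Fibrillar chains were Col1a1 (-3.26), Col5a2 (-2.91), Col11a1 (-2.50), Col5a1 (-2.43), Col5a3 (-2.22), Col1a2 (-1.59) and Col3a1 (-1.54). Basement membrane chains were Col18a1 (-2.72), Col4a4 (-2.63), Col4a6 (-2.52), Col4a3 (-2.38), Col4a5 (-2.14), Col4a1 (-1.31), Col15a1 (-0.98) and Col4a2 (-0.78). The other chains were Col12a1 (-3.90), Col8a1 (-3.11), Col8a2 (-3.07), Col27a1 (-2.29), Col7a1 (-2.05), Col6a1 (-2.00), Col6a3 (-1.46), Col22a1 (-1.36), Col9a3 (-1.18), Col25a1 (-0.99) and Col16a1 (-0.97). All 26 differences lie below 0. Groups of 2 libraries are too small to look for single libraries that stand apart by the range of their group.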

How the results depend on the processing

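Counts of called chains moved beyond 1.5 times in the ADM comparisons and in 2 hippocampus comparisons. For ADM against its control, with 0 chains called by edgeR, DESeq2 called 5, the fit with the replicate block 7, and leaving out each library in turn gave 0 to 8, while 1.94%, 2.87% and 0.0% to 3.75% of all genes were called in these fits. For the ADM effect minus the set 1 particle effect these numbers were 2, 5 and 0 to 7, with 1.35%, 2.90% and 0.0% to 3.06% of all genes. With a floor of 50 counts in the hippocampus, 7 chains instead of 11 were past 2-fold with FC against without FC, and 3 instead of 5 for ApoE shRNA with FC against control shRNA without FC. The cause was not tested, beyond the smaller number of chains above the higher floor. Leaving out each library gave 21 to 25 called chains for the set 1 particle (22 with all libraries), 13 to 23 for set 2 (19), 0 to 0 for the reconstituted particle, 13 to 16 for reconstituted against ApoE particle (16) and 24 to 27 for the difference between sets (26). Of 1026 values of named chains under an alternative, 967 kept their side of the threshold, 29 gained a call, 30 lost it and 0 called values changed sign. These counts do not measure how firm the calls are, because the named chains were chosen partly by their calls in these data. Scaling by library totals and by relative log expression factors each left 97 of 97 values on their side.

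Replicate numbers are shared between groups, but the labels tie them to no culture, and same-numbered libraries deviated together only in the ADM table (r = 0.48, against -0.075 to 0.042 elsewhere). With the replicate block, 24 chains were called for the set 1 particle, 18 for set 2, 0 for the reconstituted particle, 16 for reconstituted against ApoE particle and 27 for the difference between sets. Outside the ADM comparisons, the share of all genes called is not given for these fits or for those that leave out 1 library. Such counts therefore do not show whether the chains moved apart from other genes. A depth of 14624082 to 19142353 counts a library leaves chains near the floor of 10 counts, such as Col4a3 in set 2, with wide counting error.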
